A study of Mus musculus with 15 samples.

Results

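The 10 genes described here encode transcription factors that act in mesenchymal lineages other than fat: Runx2, Sp7, Sox9, Msx1, Msx2, Twist1, Twist2, Dlx5, Prrx1 and Tbx2. They were taken as a fixed list of symbols matched to the Ensembl gene IDs of the count files, all of them kept whether or not they were detected, and make up 10 of 46603 genes. RNA sequencing libraries of mouse embryonic fibroblasts (MEFs) were compared across 5 conditions with 3 samples each, 15 in all. All cells were wild-type BALB/c MEFs taken from embryos of 10.5 days and kept in DMEM with 10% fetal bovine serum, so the conditions differed in time and medium and carried no genetic change. The paper's introduction describes MEFs in general as coming from another strain and older embryos, and its methods give neither strain nor age. MEFD0 cells were collected at day 0. MEFD3plu cells had spent 3 days, from confluency, in medium with 0.5 mM IBMX (a phosphodiesterase inhibitor), 10 µg/mL insulin, 1 µM dexamethasone (a glucocorticoid) and 10 µM rosiglitazone (an agonist of PPARG). MEFD5plu cells had been treated in the same way and then returned to growth medium without these agents for the last 2 days. MEFD3min and MEFD5min were untreated cells of the same days. MEFs are a mixed primary culture, and the methods speak of independent experiments in general, but no source says from which embryos or cultures the samples numbered 1, 3 and 4 came. The p-values below therefore measure the spread between these samples, which may be in part technical.

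Osteoblasts, chondrocytes and adipocytes can all arise from mesenchymal progenitor cells. RUNX2 and then SP7 (osterix) drive osteoblast formation, and SOX9 drives cartilage formation. The homeodomain factors MSX1, MSX2 and DLX5 act in craniofacial and limb bone, PRRX1 is a homeodomain factor of limb and skull mesenchyme, the basic helix-loop-helix factors TWIST1 and TWIST2 restrain osteoblast maturation, and TBX2 is a T-box repressor of limb and heart development. The comparisons ask how the RNA of these alternative fate factors stood when MEFs were pushed towards fat and after the inducing agents had been withdrawn.

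The totals ran from 24030558 to 37281126 counts per sample. All 9 fibroblast and mesenchyme markers were above 3 counts in at least 1 sample of every condition, with summed levels of 10658 to 33517 CPM (read counts scaled to a common library total). At day 3, 7 of these 9 markers were lower and 1 was higher in treated than in untreated cells, against 28.0% and 28.0% of all genes. The median log2 fold change was -1.60, beside 0.00 over all genes. At day 5, 3 were lower and 3 higher, against 24.2% and 26.3%, with a median of -0.17 beside 0.01. Marker sums of other cell types stayed low in all 15 samples: 2.06 to 6.97 CPM for 6 macrophage genes, 1.00 to 18.7 CPM for 5 endothelial genes, 0.0564 to 1.46 CPM for 5 epithelial genes, 0.0265 to 2.17 CPM for 5 skeletal muscle genes and 2.13 to 8.48 CPM for 4 neuronal genes. The endothelial sum was 1.00 to 1.54 CPM in MEFD0 and 10.0 to 18.7 CPM in MEFD5min. Nearly all of this rise was Emcn, with means of 0.0274 and 12.5 CPM in these conditions. Cdh5 averaged 0.839 and 1.95 CPM, Pecam1 0.0664 and 0.120 CPM, Kdr 0.154 and 0.0733 CPM, and Tek 0.0975 and 0.0673 CPM. For 4 Schwann or neural crest glia genes the sums were 1.66 to 7.74 CPM. Of these, 2 were tested, and 2 were lower in treated cells at day 3 and 1 at day 5, against 28.0% and 24.2% of all genes. MEFD3min replicate 3 stood apart from its replicates: it held 157232 Col1a1 counts where replicates 1 and 4 held 71189 and 62401, and 27 Adipoq counts where they held 0 and 1. Results at day 3 are therefore also given without it for the called factors that moved most and for each call it changed among the genes named. In such bulk samples, fewer cells of a type and less RNA per cell cannot be told apart.

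Of the 10 factors, 8 passed the filter on low counts and were tested among 15997 genes. Msx1 and Dlx5 did not pass. Msx1 (GRCm38 chr5:37820485-37824583) had 1 count in each MEFD5min sample and 0 counts in the other 12 samples. Dlx5 (chr6:6877805-6882085) had at most 1 count in any sample and 5 counts over all 15 samples. Both stayed at or under the floor of 3 counts per sample in every condition, so neither was detected at this depth, and no fold change is given for them.

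The levels per kb of exon, in CPM, overlapped between some factors, so no single order holds in every condition. Prrx1 was the most abundant in every condition, with means of 33.9 to 45.6 CPM per kb, and Twist1 came next with 19.6 to 28.5 CPM per kb. Sox9 ranged from 4.67 to 16.4 CPM per kb and Twist2 from 3.58 to 9.57 CPM per kb. Runx2, the early osteoblast factor, lay between 1.76 and 3.84 CPM per kb. Tbx2 ranged from 0.288 to 4.17 CPM per kb and was above Runx2 in MEFD3min, MEFD5min and MEFD5plu, Msx2 ranged from 0.150 to 1.46 CPM per kb and Sp7, the later osteoblast factor, from 0.0156 to 0.387 CPM per kb. On this scale Prrx1 and Twist1 exceeded Sp7 in every condition. Across conditions Sp7, Tbx2 and Msx2 varied most, with ratios of the highest to the lowest condition mean of 24.9, 14.5 and 9.73, whereas Prrx1 and Twist1 varied least, with ratios of 1.35 and 1.45.

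**Figure D1:**
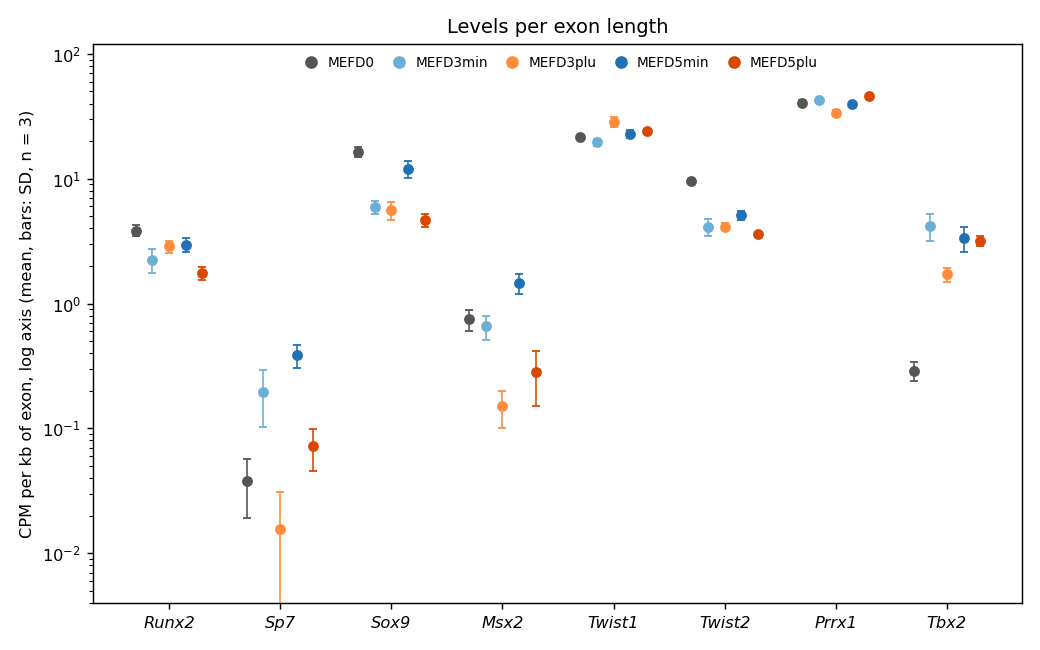
Mean level of each tested factor in CPM per kb of exon on a log axis, by condition, with bars for the SD of 3 samples; the lower bar of Sp7 in MEFD3plu runs below the axis. Prrx1 and Twist1 lie above 19 CPM per kb in every condition, and Sp7 lies below 0.4 CPM per kb.

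At day 3, 6 of the 8 tested factors differed between MEFD3plu and MEFD3min at an adjusted p under 0.05 (edgeR quasi-likelihood test, Benjamini-Hochberg over all genes tested). Of these, 2 were higher in treated cells, Runx2 and Twist1, against 28.0% of all tested genes, and 4 were lower, Sp7, Msx2, Prrx1 and Tbx2, against 28.0%. The median log2 fold change of the 8 factors was -0.21, beside 0.00 over all genes. At day 5, 6 of 8 differed between MEFD5plu and MEFD5min, with Prrx1 higher (background 26.3%) and Runx2, Sp7, Sox9, Msx2 and Twist2 lower (background 24.2%), and the median was -0.63, beside 0.01 over all genes. Sp7 and Msx2 were lower in treated cells at both days, and Runx2 and Prrx1 were called in opposite directions at the 2 days, although the Runx2 call at day 3 and the Prrx1 call at day 5 were each lost under several alternative fits, given below with each gene. Sp7 entered the test through MEFD3min and MEFD5min, so the direction of its calls at both days was largely set by the filter.

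**Figure D2:**
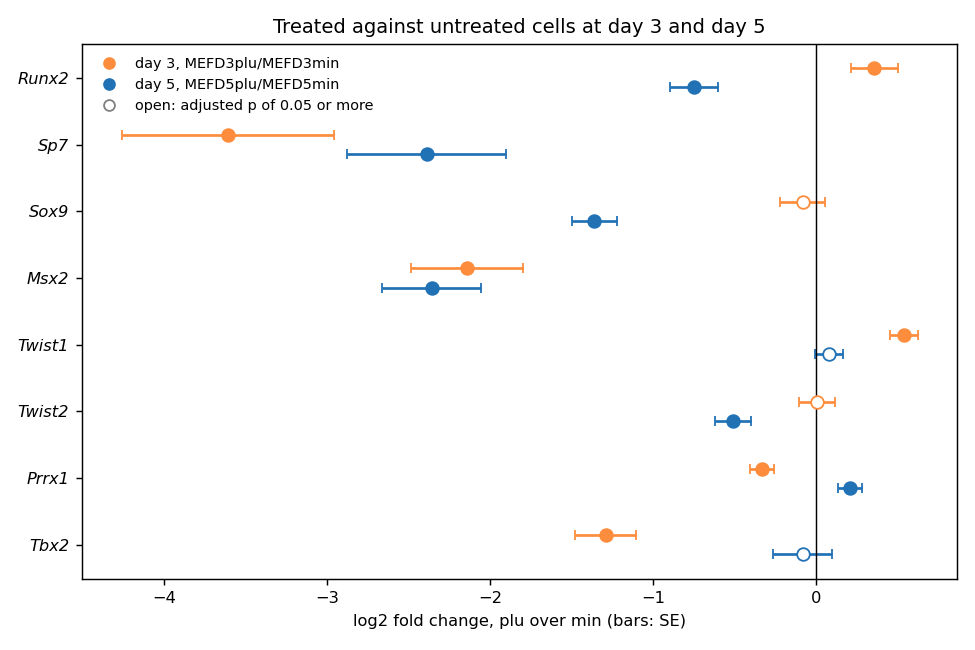
Log2 fold change of treated over untreated cells at day 3 (orange) and day 5 (blue) for the 8 tested factors, with bars for the standard error; filled points passed an adjusted p of 0.05. Sp7 and Msx2 lie left of -2 on both days, and Runx2 moves from 0.36 at day 3 to -0.75 at day 5.

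Runx2 (ENSMUSG00000039153, chr17:44495987-44814797, minus strand) encodes the runt domain factor without which osteoblasts do not form. It measured 35.8, 36.0 and 30.0 CPM in MEFD0, replicates 1, 3 and 4 in this order here and below. In the untreated cells it measured 16.8, 24.6 and 17.7 CPM at day 3 and 25.3, 30.1 and 23.2 CPM at day 5. In the treated cells it measured 25.8, 27.9 and 22.3 CPM at day 3 and 17.4, 13.9 and 15.5 CPM at day 5. All MEFD0 samples but replicate 4 were above every other sample, and the day 3 groups overlapped through MEFD3min replicate 3, while the day 5 groups did not overlap. The day 3 difference was a log2 fold change of 0.36 ± 0.146 (SE; 1.28-fold higher; adjusted p = 0.0445 by edgeR). Without MEFD3min replicate 3 it was 0.55 (adjusted p = 0.00187), but the call was lost without MEFD3min replicate 1 (0.26, adjusted p = 0.192), MEFD3min replicate 4 (0.29, adjusted p = 0.131), MEFD3plu replicate 1 (0.35, adjusted p = 0.0960) or MEFD3plu replicate 3 (0.29, adjusted p = 0.158), in edgeR throughout. It was also lost when only the 6 samples compared were fitted (edgeR adjusted p = 0.0981) and when counts were scaled by totals alone (edgeR adjusted p = 0.0513). At day 5 Runx2 fell by 0.75 ± 0.147 on the log2 scale (1.68-fold lower; edgeR adjusted p = 0.000458). The antisense gene Runx2os1 overlaps 5.87% of the exon bases of Runx2 and had condition means of 0.113 to 0.284 CPM.

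Sp7 (ENSMUSG00000060284, chr15:102356606-102367182, minus strand) encodes osterix, a zinc finger factor that acts after RUNX2. It was close to the limit of detection, so its counts are given: 5, 6 and 2 counts in MEFD0, 20, 36 and 11 in MEFD3min, and 43, 42 and 41 in MEFD5min. The treated samples held 3, 0 and 2 counts at day 3 and 5, 8 and 11 counts at day 5. All treated samples were below all untreated samples of the same day. At day 3 the summed counts of 67 against 5 gave a ratio of 13.3 of untreated over treated, scaled for library totals (95% interval 5.43 to 42.4, counting error only). At day 5 the counts of 126 against 24 gave a ratio of 5.21 (3.35 to 8.44). Both falls were called, with log2 fold changes of -3.61 ± 0.653 (edgeR adjusted p = 0.000153) and -2.39 ± 0.490 (edgeR adjusted p = 0.000647). However, Sp7 passed the filter on low counts through MEFD3min (0.370 to 1.01 CPM) and MEFD5min (1.11 to 1.63 CPM). The direction of its calls between these and the other conditions was thus largely set by that filter. Without MEFD3min replicate 3, which held the most counts of its group, the day 3 value was -3.18 (edgeR adjusted p = 0.000909). All MEFD3plu samples were at or under 3 counts, so the fitted size at day 3 is uncertain.

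Sox9 (ENSMUSG00000000567, chr11:112782224-112787760, plus strand) encodes the factor at the head of the cartilage program. It measured 74.4, 62.7 and 66.0 CPM in MEFD0. At day 3 it measured 23.1, 27.6 and 22.4 CPM in untreated and 25.9, 24.8 and 18.6 CPM in treated cells. At day 5 it measured 48.4, 57.8 and 42.6 CPM in untreated and 21.0, 16.8 and 20.2 CPM in treated cells. The day 3 groups overlapped and the day 5 groups were far apart. At day 3 the log2 fold change was -0.08 ± 0.139 (95% interval -0.35 to 0.19; edgeR adjusted p = 0.651), and at day 5 Sox9 fell by 1.36 ± 0.140 on the log2 scale (2.56-fold lower; edgeR adjusted p = 5.62e-07). The difference at day 5 stood beside a rise in the untreated cells from day 3 to day 5, with a log2 fold change of 1.02 ± 0.138 (edgeR adjusted p = 1.41e-05), while MEFD5plu differed from MEFD3plu by -0.26 ± 0.140 (edgeR adjusted p = 0.123).

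Msx2 (ENSMUSG00000021469, chr13:53466884-53473074, minus strand) encodes a homeodomain factor of skull and limb bone. It measured 2.78, 2.68 and 1.93 CPM in MEFD0 and 1.85, 2.69 and 1.92 CPM in MEFD3min, and 5.75, 4.20 and 4.38 CPM in MEFD5min. In treated cells it measured 0.477, 0.658 and 0.338 CPM at day 3 and 1.34, 0.966 and 0.482 CPM at day 5. All treated samples were below all untreated samples of either day and of MEFD0. The log2 fold change was -2.14 ± 0.344 at day 3 (4.40-fold lower; edgeR adjusted p = 4.71e-05) and -2.36 ± 0.306 at day 5 (5.13-fold lower; edgeR adjusted p = 7.30e-06). Without MEFD3min replicate 3 the day 3 value was -1.94 (edgeR adjusted p = 0.000229). Its relative Msx1 was not detected.

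Twist1 (ENSMUSG00000035799, chr12:33957671-33959829, plus strand) and Twist2 (ENSMUSG00000007805, chr1:91801461-91848028, plus strand) encode closely related helix-loop-helix factors, and they were called at different days, Twist1 at day 3 and Twist2 at day 5. To set this pair side by side their promoter sequences are shown, as the 250 bases before the gene start in RefSeq (GRCm38.p6, plus strand for both), 5′ to 3′, with capitals for the TATA box TATAAA, the CCAAT box CCAAT and the GC box GGGCGG on either strand. The window of Twist1 is chr12:33957421-33957670 and that of Twist2 is chr1:91801211-91801460.
Twist1: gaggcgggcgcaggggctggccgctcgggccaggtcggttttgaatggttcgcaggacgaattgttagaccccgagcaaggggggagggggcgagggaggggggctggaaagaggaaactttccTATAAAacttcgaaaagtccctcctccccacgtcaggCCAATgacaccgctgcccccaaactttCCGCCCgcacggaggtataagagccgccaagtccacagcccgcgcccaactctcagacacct
Twist2: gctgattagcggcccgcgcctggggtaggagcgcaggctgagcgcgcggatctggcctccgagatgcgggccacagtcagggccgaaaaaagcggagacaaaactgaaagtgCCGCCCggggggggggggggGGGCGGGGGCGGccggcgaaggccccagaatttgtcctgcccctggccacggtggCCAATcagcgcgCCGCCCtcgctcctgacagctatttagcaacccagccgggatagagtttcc

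Both windows held 1 CCAAT box, a motif found in 33.8% of all 32851 RefSeq windows of this length. The Twist1 window held 1 match to TATAAA, which 12.4% of windows held, and the Twist2 window held 0. The match lay near the middle of the window and not close to the gene start. GC boxes, present in 32.7% of windows, numbered 1 for Twist1 and 4 for Twist2. Neither window held an E box (CANNTG on either strand), the motif that TWIST factors bind, which 66.2% of windows held. A match is a stretch of letters and says nothing here of factor binding or of promoter use.

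Twist1 measured 35.7, 33.6 and 35.8 CPM in MEFD0. At day 3 it measured 32.1, 29.7 and 34.0 CPM in untreated and 43.4, 44.7 and 51.1 CPM in treated cells. At day 5 it measured 38.4, 33.9 and 38.7 CPM in untreated and 37.6, 40.0 and 39.8 CPM in treated cells. The 3 MEFD3plu samples were the 3 highest of the 15 samples, and the day 5 groups overlapped. Twist1 rose by a log2 fold change of 0.54 ± 0.0859 at day 3 (1.45-fold higher; edgeR adjusted p = 4.17e-05), and the value at day 5 was 0.08 ± 0.0856 (95% interval -0.09 to 0.25; edgeR adjusted p = 0.470).

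Twist2 measured 29.6, 30.0 and 31.6 CPM in MEFD0. At day 3 it measured 10.7, 14.8 and 13.6 CPM in untreated and 13.7, 13.5 and 12.2 CPM in treated cells. At day 5 it measured 17.2, 16.4 and 14.8 CPM in untreated and 11.3, 11.3 and 11.4 CPM in treated cells. Every later sample lay below MEFD0, and only the day 5 groups were apart. The log2 fold change was 0.01 ± 0.110 at day 3 (95% interval -0.21 to 0.22; edgeR adjusted p = 0.946) and -0.51 ± 0.110 at day 5 (1.42-fold lower; edgeR adjusted p = 0.00101). The antisense gene Gm29100 overlaps 46.5% of the exon bases of Twist2, and the sources give no strand setting for the counting. Gm29100 itself had 0.345 to 2.36 CPM per sample and was not called at either day (log2 fold changes of -0.32 and -0.41, edgeR adjusted p = 0.444 and 0.297).

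Prrx1 (ENSMUSG00000026586, chr1:163245119-163313710, minus strand) encodes a homeodomain factor of early limb and skull mesenchyme and was the most abundant factor. It measured 476, 447 and 424 CPM in MEFD0. At day 3 it measured 457, 464 and 496 CPM in untreated and 368, 360 and 398 CPM in treated cells. At day 5 it measured 442, 447 and 422 CPM in untreated and 484, 520 and 510 CPM in treated cells. The treated samples were the lowest of all 15 at day 3 and were above the untreated ones at day 5. Prrx1 fell by 0.33 ± 0.0753 on the log2 scale at day 3 (1.26-fold lower; edgeR adjusted p = 0.00117) and rose by 0.21 ± 0.0753 at day 5 (1.16-fold higher; edgeR adjusted p = 0.0290). The rise rested on the scaling. With counts scaled by totals alone, which moved the day 5 median of all genes from 0.01 to -0.15, it was 0.04 (edgeR adjusted p = 0.615), and with DESeq2 size factors 0.16 (edgeR adjusted p = 0.0911). It was also lost without the filter on low counts (0.21, edgeR adjusted p = 0.119) and without MEFD5min replicate 1 (0.22, adjusted p = 0.0606), MEFD5min replicate 4 (0.14, adjusted p = 0.208), MEFD5plu replicate 3 (0.19, adjusted p = 0.0962) or MEFD5plu replicate 4 (0.20, adjusted p = 0.0808), in edgeR throughout.

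Tbx2 (ENSMUSG00000000093, chr11:85832551-85841948, plus strand) encodes a T-box repressor. It was nearly absent at the start, with 0.994, 1.25 and 0.893 CPM in MEFD0. At day 3 it measured 14.6, 19.1 and 11.8 CPM in untreated and 5.39, 6.89 and 6.31 CPM in treated cells. At day 5 it measured 14.3, 9.03 and 13.2 CPM in untreated and 12.7, 11.3 and 10.7 CPM in treated cells. All later samples were above all MEFD0 samples, the day 3 groups were apart and the day 5 groups overlapped. The log2 fold change of treated over untreated cells was -1.29 ± 0.187 at day 3 (2.44-fold lower; edgeR adjusted p = 1.52e-05) and -0.08 ± 0.181 at day 5 (95% interval -0.44 to 0.27; edgeR adjusted p = 0.739). Without MEFD3min replicate 3 the day 3 value was -1.09 (edgeR adjusted p = 5.24e-05).

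**Figure D3:**
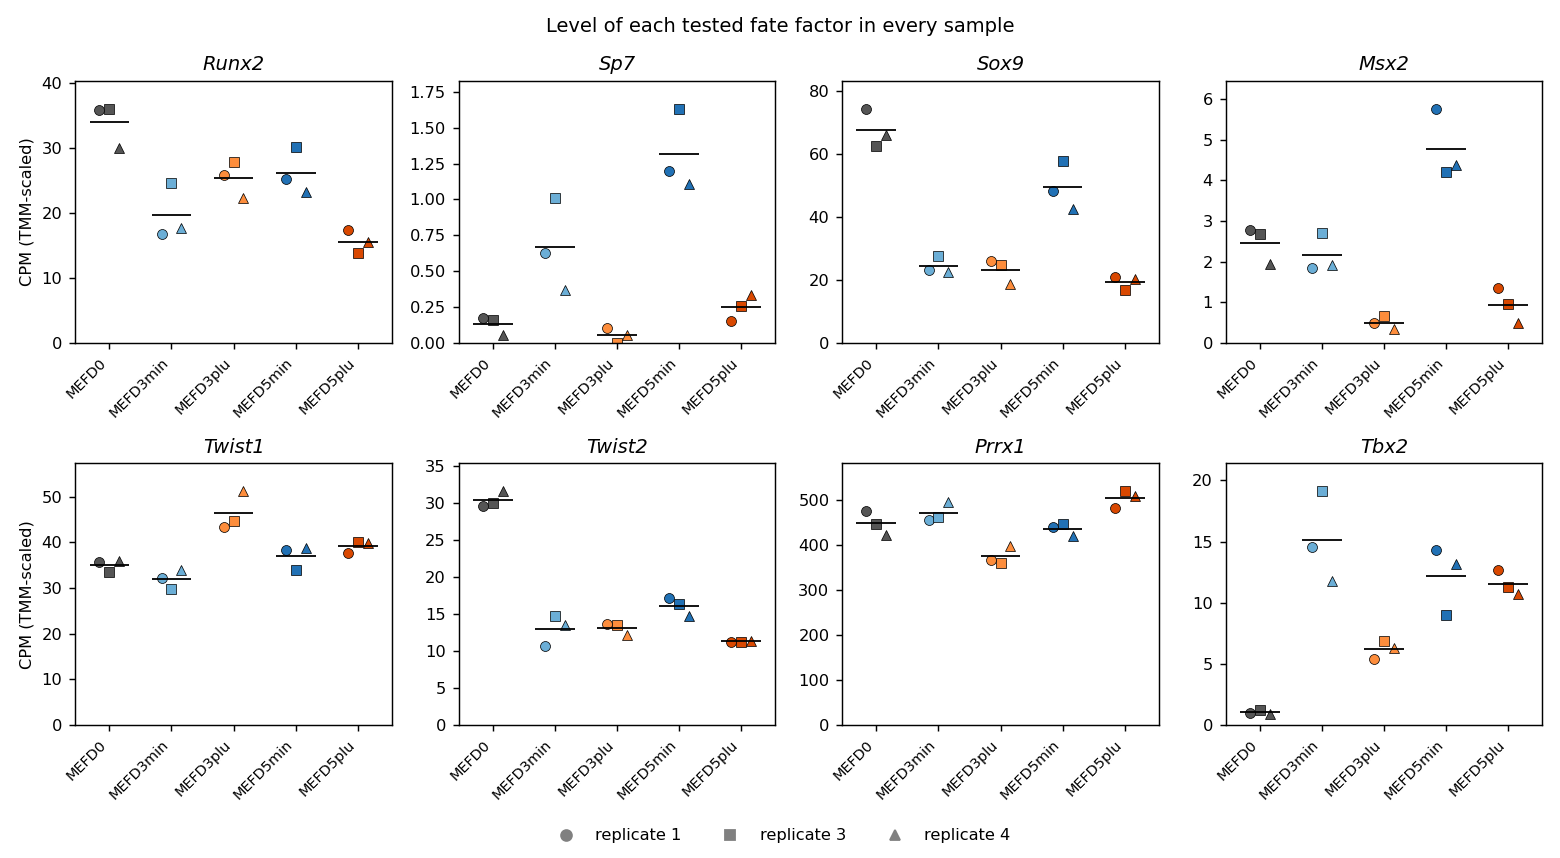
CPM of the 8 tested factors in each of the 15 samples, 1 panel per gene with its own axis from 0; symbols mark the replicate number and lines the mean of 3 samples. Tbx2 is near 1 CPM in MEFD0 and above 5 CPM in every later sample, and Msx2 is lower in all 6 treated samples than in the other 9.

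Whether the treatment difference itself changed between the days was tested as an interaction, the day 3 log2 fold change minus that at day 5. It was called for 6 of 8 factors, with a background of 48.5% of all genes. Treated cells stood relatively higher at day 3 than at day 5 for Runx2 (1.11 ± 0.207, edgeR adjusted p = 0.000311), Sox9 (1.28 ± 0.197, 5.05e-05), Twist1 (0.46 ± 0.121, 0.00470) and Twist2 (0.52 ± 0.155, 0.0109). They stood relatively lower at day 3 for Prrx1 (-0.54 ± 0.106, edgeR adjusted p = 0.000485) and Tbx2 (-1.21 ± 0.259, 0.00102). For Sp7 (-1.22 ± 0.858, 95% interval -2.90 to 0.46, edgeR adjusted p = 0.258) and Msx2 (0.22 ± 0.479, -0.72 to 1.16, 0.733) no change between days was called, and the intervals are wide.

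Untreated cells changed as well. From MEFD0 to MEFD3min, Sp7 (log2 fold change 2.38) and Tbx2 (3.85, 14.4-fold) rose, against 31.4% of genes, and Runx2 (-0.78), Sox9 (-1.47) and Twist2 (-1.22) fell, against 28.6%. From MEFD3min to MEFD5min, Runx2 (0.41), Sox9 (1.02), Msx2 (1.15) and Twist2 (0.31) rose, against 21.3%, and 0 of 8 fell, against 21.5% (edgeR; 0 also at an unadjusted p under 0.05, and 0 by DESeq2), although Tbx2 was called lower without MEFD3min replicate 4 (-0.46, edgeR adjusted p = 0.0406). The rises of Runx2 and Twist2 were lost when only these 6 samples were fitted (edgeR adjusted p = 0.0791 and 0.126) and without 1 sample in 4 and 3 cases, with edgeR adjusted p of up to 0.150 without MEFD3min replicate 1 for Runx2 and 0.178 for Twist2. Sp7 was called higher there without MEFD3min replicate 3 (1.38, edgeR adjusted p = 0.0403), and Twist1 without MEFD3min replicate 4 (0.26, 0.0286) or MEFD5min replicate 3 (0.27, 0.0275). Twist1 was also called higher there by DESeq2 (0.21, DESeq2 adjusted p = 0.0447). In edgeR it was called with totals alone (0.32, adjusted p = 0.00311), at least 10 counts in every sample (0.22, 0.0420) and the replicate block (0.21, 0.0323). From MEFD0 to MEFD5min as a whole, Sp7 (3.32), Msx2 (0.96) and Tbx2 (3.54) were higher, against 24.5%, and Runx2 (-0.37), Sox9 (-0.45) and Twist2 (-0.91) were lower, against 21.9%. In this comparison Runx2 lost its call without MEFD0 replicate 1 or 3 or MEFD5min replicate 1 or 4 (edgeR adjusted p = 0.118, 0.125, 0.111 and 0.123), Sox9 without MEFD0 replicate 1 (0.0577) and Msx2 without MEFD5min replicate 1 (0.0529). By the main fit, the limb factors Msx2 and Tbx2 thus gained RNA in 5 days of untreated culture, while Sox9 and Twist2 ended lower than they began. Runx2 was lower too, but its call was lost in the fits above and with at least 10 counts asked in every sample (edgeR adjusted p = 0.0582). The osteoblast factor Sp7 was higher, but it passed the filter through MEFD3min and MEFD5min, so the direction of its rises over MEFD0 was largely set by the filter.

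The treated cells were set against the same MEFD0 samples. MEFD3plu was higher for Twist1 (0.41) and Tbx2 (2.56), against 33.9% of genes, and lower for Runx2 (-0.42), Sox9 (-1.55), Msx2 (-2.32), Twist2 (-1.21) and Prrx1 (-0.26), against 29.7%. The Runx2 call was lost without MEFD0 replicate 1 or 3 or MEFD3plu replicate 4 (edgeR adjusted p = 0.0557, 0.0588 and 0.0783). MEFD5plu was higher for Tbx2 (3.46, 11.0-fold), against 35.2%, and lower for Runx2 (-1.12), Sox9 (-1.81), Msx2 (-1.40) and Twist2 (-1.42), against 29.8%, with Prrx1 also called higher without MEFD0 replicate 1 (0.21, edgeR adjusted p = 0.0452). Between MEFD3plu and MEFD5plu, across the withdrawal of the agents, Sp7 (2.16), Msx2 (0.93), Prrx1 (0.43) and Tbx2 (0.90) rose, against 33.8%, and Runx2 (-0.70) and Twist1 (-0.25) fell, against 29.2%. The Sp7 rise was from 5 to 24 summed counts, a ratio of 4.75 (95% interval 1.78 to 15.9, counting error only), and its call was lost without MEFD3plu replicate 3 or MEFD5plu replicate 4 (edgeR adjusted p = 0.0692 and 0.0652). The Msx2 rise (edgeR adjusted p = 0.0388) was lost without MEFD5plu replicate 1 or 3 (edgeR adjusted p = 0.238 and 0.0805) or MEFD3plu replicate 1 or 4 (0.0834 and 0.148), with only the samples compared (0.0789) and with totals alone (0.0626). The Twist1 fall was lost without MEFD3plu replicate 4 or MEFD5plu replicate 1 (edgeR adjusted p = 0.109 and 0.0679). Sox9 was called lower without MEFD3plu replicate 4 (-0.39, edgeR adjusted p = 0.0208) and without the filter on low counts (-0.28, 0.0444). Twist2 was called lower with only the samples compared (-0.25, edgeR adjusted p = 0.0461) and with totals alone (-0.29, 0.0332).

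By condition means, Runx2, Sox9 and Twist2 were highest in MEFD0 and lowest in MEFD5plu, Sp7 and Msx2 were highest in MEFD5min and lowest in MEFD3plu, and Tbx2 was lowest in MEFD0. For Runx2 the order was MEFD0, MEFD5min, MEFD3plu, MEFD3min and MEFD5plu. The neighbours MEFD5min and MEFD3plu (edgeR adjusted p = 0.799) and MEFD3min and MEFD5plu (0.0588) did not differ beyond their spread. For Sox9 the order was MEFD0, MEFD5min, MEFD3min, MEFD3plu and MEFD5plu, and the last 3 did not differ between neighbours (edgeR adjusted p = 0.651 and 0.123). For Tbx2 the first 3, MEFD3min, MEFD5min and MEFD5plu, did not differ between neighbours (edgeR adjusted p = 0.181 and 0.739). For Prrx1 only the step from MEFD5min to MEFD3plu, the lowest, passed the test (edgeR adjusted p = 0.0175), and for Twist1 only the step from MEFD3plu, the highest, to MEFD5plu (0.0188).

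The genes whose log2 CPM ran most like each factor over the 15 samples are a description, since the samples fall into 5 conditions and share their libraries. Sox9 ran with Poc1b, Bcl7a and Top3a (Pearson r = 0.99, 0.98 and 0.98), and Tbx2 with Dcn, Pcp4l1 and Fgf1 (0.99, 0.99 and 0.99). Runx2 ran with Raver1, Nup188 and Pwp2 (0.98, 0.98 and 0.97), Msx2 with Ass1, Pdlim7 and Pik3cd (0.97, 0.97 and 0.96), and Twist2 with Slc6a6, Abcb10 and Fam102b (0.97, 0.97 and 0.96). The values were lower for Sp7 with Sfmbt2, Tll1 and Tnc (0.94, 0.93 and 0.93), Twist1 with Kpna1, Ss18l2 and Txn2 (0.94, 0.94 and 0.93) and Prrx1 with Oscp1, Ttc8 and Tbc1d19 (0.95, 0.93 and 0.93). Of these, Dcn encodes a matrix proteoglycan, Fgf1 a growth factor and Tnc the matrix protein tenascin C.

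The genes that these factors act beside were read from fixed lists. Of 20 osteoblast matrix and mineralisation genes, 15 were tested. At day 3, 2 rose in treated cells and 7 fell, against 28.0% and 28.0% of all genes, and at day 5, 6 rose and 5 fell, against 26.3% and 24.2%, with median log2 fold changes of -0.23 and -0.11. The late osteoblast marker Bglap (osteocalcin) was all but missing, with 1 to 4 counts summed over the 3 samples of a condition. Ibsp (bone sialoprotein) was seen only in MEFD3plu, with 10, 7 and 5 counts in its 3 samples and 0 counts in all 12 others. Other genes of late bone cells were detected: Dmp1 averaged 9.50 CPM in MEFD3min and 22.6 CPM in MEFD5min, and Phex 58.4 and 35.1 CPM. Alpl (alkaline phosphatase), which mineralising cells need, was higher in treated cells. It had 0, 4 and 1 counts in MEFD3min and 28, 29 and 30 counts in MEFD3plu, a ratio of 17.5 (95% interval 7.22 to 55.3). At day 5 the ratio was 74.0 (20.1 to 617) from 147 counts against 2. The other rise at day 3 was Pth1r (log2 fold change 3.92), the parathyroid hormone receptor. Alpl and Pth1r both passed the filter through treated samples, so the direction of these 2 rises was largely set by it.

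Among the falls, Dmp1, a matrix protein of osteocytes, fell at both days with log2 fold changes of -4.03 ± 0.264 and -2.02 ± 0.198 (edgeR adjusted p = 7.98e-10 and 3.15e-07), as Sp7 did. Phex, a peptidase of osteoblasts and osteocytes, fell by 3.15 ± 0.115 on the log2 scale at day 3 (edgeR adjusted p = 5.31e-13), and the day 5 value was 0.30 ± 0.102 (0.0227). Col1a1, the main collagen of bone and of fibroblasts, fell by 1.82 at day 3 and by 0.79 at day 5 on the log2 scale (edgeR adjusted p = 2.11e-05 and 0.0195), and its day 3 value without MEFD3min replicate 3 was -1.39 (2.58e-05). Spp1 (osteopontin), which many cell types make, was abundant throughout with condition means of 2725 to 11153 CPM, was not called at day 3 (-0.23, edgeR adjusted p = 0.221) unless MEFD3min replicate 3 was left out (-0.36, 0.0486), and rose at day 5 (0.48, 0.0164). Omd, a keratan sulphate proteoglycan of bone, rose at day 5 (1.84, edgeR adjusted p = 0.000182).

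Cartilage matrix genes and SOX partners were mostly near the limit of detection. Of 20 genes 9 were tested, and 6 rose and 0 fell at day 3, against 28.0% and 28.0% of all genes, while 7 rose and 0 fell at day 5, against 26.3% and 24.2%, where Sox9 fell. The median log2 fold change was 1.69 at day 3 and 0.93 at day 5, and by edgeR the members with a negative value, Col9a3 at day 3 (-0.53, adjusted p = 0.386) and Sox5 at day 5 (-0.03, 0.917), were not called. Comp, Cnmd, Sox6 and Col10a1 were low in all untreated samples and passed the filter through treated samples. Their direction was thus largely set by the filter, and these counts and medians do not measure a shift of the list. Col11a1, a fibrillar collagen of cartilage, rose from 79.2 ± 9.62 to 404 ± 20.6 CPM (SD, n = 3) at day 3 and from 75.1 ± 15.4 to 122 ± 10.9 CPM at day 5. Col11a2 (1.76 and 0.84) and the transcription factor gene Trps1 (0.27 and 0.93) rose at both days. The defining cartilage genes were near 0: Acan (aggrecan) had 1 count in 1 of 15 samples, and Col2a1 had 35 counts over the 3 MEFD0 samples and 0 to 2 over those of each other condition. Comp, a cartilage and tendon matrix protein, had 62 against 6 summed counts at day 3 (ratio 10.4, 95% interval 4.51 to 29.4) and 27 against 5 at day 5 (5.44, 2.06 to 18.1). Untested members went both ways. Epyc at day 3 and Matn3 at day 5, named after their values were seen, were lower in treated cells. Epyc, a small proteoglycan of cartilage, had 61 counts in MEFD3min against 2 in MEFD3plu (ratio 30.3, 95% interval 8.04 to 256). It was called lower in the fit without MEFD3min replicate 3 (edgeR adjusted p = 9.47e-05). There it passed the filter through MEFD3min, so the direction of this call was largely set by the filter. Matn3, a matrilin, had 34 counts in MEFD5min against 5 in MEFD5plu (6.75, 2.63 to 22.1). On the other day of each gene the interval held 1. Epyc had 21 counts in MEFD5plu against 19 in MEFD5min (1.11, 0.570 to 2.19), and Matn3 had 13 in MEFD3min against 6 in MEFD3plu (2.15, 0.764 to 6.91). These intervals cover counting error only. Untested Col9a2 was higher in treated cells, with 15 summed counts against 5 at day 3 and 14 against 0 at day 5.

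**Figure D4:**
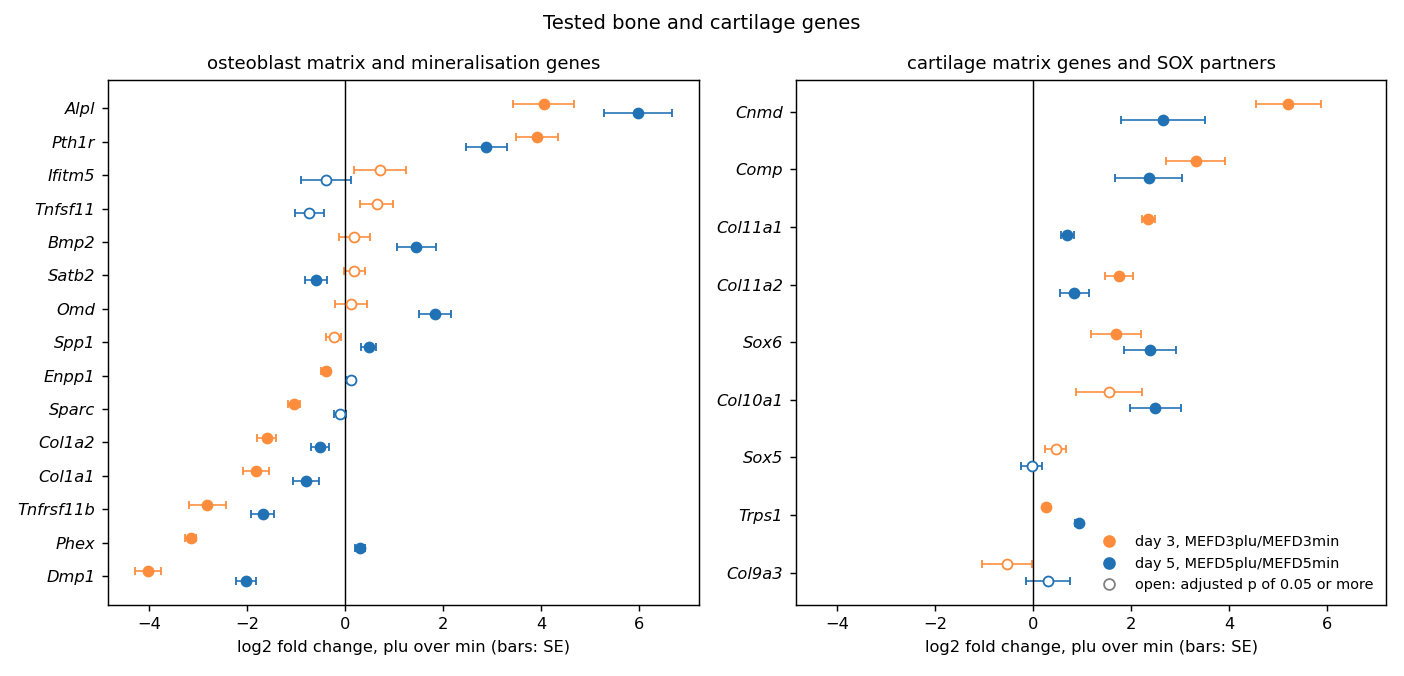
Log2 fold change of treated over untreated cells at day 3 (orange) and day 5 (blue) for the tested genes of the bone and cartilage lists, sorted by day 3, with bars for the standard error; filled points passed an adjusted p of 0.05. Dmp1 is lowest at both days on the left, and 7 of the 9 cartilage genes are filled and right of 0 at day 5.

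Of 16 family relatives of the factors 8 were tested, and 0 rose and 4 fell at day 3 by edgeR, against 28.0% and 28.0% of all genes: Dlx1 (-0.90), Tbx3 (-0.67), Runx1 (-0.59) and Cbfb (-0.45), the last being the partner subunit of all RUNX factors. At day 5, Prrx2 rose (0.61) and 5 fell, against 26.3% and 24.2%: Dlx2 (-1.30), Tbx3 (-1.08), Runx1 (-0.91), Dlx1 (-0.32) and Cbfb (-0.24). Thus Tbx3 was lower at both days, where its relative Tbx2 was called lower at day 3 alone. Among 9 partners and inhibitors of TWIST factors 7 were tested, with 2 higher and 3 lower at day 3, against 28.0% and 28.0% of all genes. The E protein genes Tcf12 (-0.60), Tcf3 (-0.56) and Tcf4 (-0.49) fell as Twist1 rose, and the inhibitor genes Id1 (0.50) and Id4 rose. The Id1 call was lost without MEFD3min replicate 3 (0.37, edgeR adjusted p = 0.0607). Id4 had 140 counts in MEFD3plu against 3 in MEFD3min (ratio 46.9, 95% interval 15.7 to 230, counting error only). At day 5, Tcf4 (0.38) and Tcf12 (0.26) rose and Id3 (-0.49) and Tcf3 (-0.45) fell, against 26.3% and 24.2%, and with counts scaled by totals alone 0 rose and 2 fell.

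Of 14 mesenchyme and EMT genes all were tested, with 5 higher and 8 lower at day 3, against 28.0% and 28.0% of all genes, and 6 higher and 4 lower at day 5, against 26.3% and 24.2%. At day 3 the repressor genes Zeb2 (0.86) and Snai1 (0.58) rose, and S100a4 (-2.53) and the surface marker Thy1 (-2.34) fell. The other rises at day 3 were Cdh2 (0.54), Cdh11 (0.30) and Pdgfrb (0.34). At day 5, S100a4 (0.93) and Cdh11 (0.76) rose, while the 4 falls were Fn1 (-1.43), Cdh2 (-0.97), Fap (-0.59) and Snai1 (-0.35). The summed level of these genes was 8391 to 12403 CPM in MEFD3min and 3612 to 3828 CPM in MEFD3plu, beside the falls of Prrx1, Tbx2 and Msx2. Fn1 and Vim made up 78.1% to 84.1% of that sum in MEFD3min, where the top of the range was replicate 3 with 7937 CPM of Fn1, and 62.8% to 64.8% in MEFD3plu. The other 12 genes summed to 1833 to 1967 CPM in MEFD3min and 1342 to 1400 CPM in MEFD3plu. The part of these marker shifts in the falls of the factors was not tested.

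The fat program moved in the same comparisons. All 9 tested adipocyte genes of 10 rose at both days, against 28.0% of all genes at day 3 and 26.3% at day 5. Adipoq, Plin1, Cidec and Zfp423 passed the filter through treated samples, so their direction was largely set by it. Pparg, the receptor that rosiglitazone binds, rose from a mean of 12.4 to 76.6 CPM at day 3 and from 10.0 to 89.5 CPM at day 5. Adipoq (adiponectin) measured 320 CPM in MEFD3plu and 855 CPM in MEFD5plu as means, against 0.264 CPM in MEFD3min, of which MEFD3min replicate 3 held nearly all, and 0.018 CPM in MEFD5min. Cidec (480 and 1192 CPM in treated cells, against 0.276 and 0.0366 CPM) and Cd36 (2442 and 1698 CPM, against 0.864 and 0.479 CPM) did likewise. Sp7 and Msx2 were lower than in untreated cells in the samples where these fat genes were high, and a link between these levels was not tested.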

How the data were processed

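The labels and methods describe total RNA with paired 100 base reads on an Illumina NextSeq. The sources differ on the library kit and give no strand setting. Per the labels, the authors aligned to GRCm38/mm10 with TopHat2 2.1.0 and counted with HTSeq, and the deposited values are raw read counts per Ensembl gene with no normalization. DESeq2 is also named in the processing notes. Depth was 24030558 to 37281126 counts per sample, and intervals cover counting error only.

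Gene names, positions and exon lengths came from GENCODE M21 (GRCm38), and promoter windows from RefSeq (GRCm38.p6), which held 6 of the 10 genes. The members and lists were chosen with earlier results of these data known. Counts of all 15 samples were fitted once with edgeR 4.0.16 (R 4.3.3; TMM scaling, filterByExpr by condition, quasi-likelihood test, 1 mean per condition), and p-values were adjusted by Benjamini-Hochberg over 15997 genes, with a threshold of 0.05. Standard errors were the log2 fold change divided by the root of its F statistic. CPM used TMM-scaled totals, and log2 CPM a prior count of 2. The floor was 3 counts per sample. Named from each list were the 2 called genes with the largest change each way per day if their log2 CPM averaged 1 or more, plus Alpl, Spp1, Bglap, Ibsp, Acan, Col2a1, Comp, Pparg and Adipoq. Pth1r, Runx1, Cbfb, Id4, Pdgfrb, Fap, Col9a2, Col9a3, Sox5, Epyc, Matn3, Cnmd, Sox6, Col10a1, Plin1, Zfp423 and the endothelial markers, and the further days of others, were named after their values were seen. The steps were tested on simulated data. Replicate numbers were taken to pair the samples at day 3 only, where the correlations of deviations from the group means were 0.143, 0.228 and 0.360 for numbers 1, 3 and 4. They were smaller on average but also positive for MEFD3min/MEFD0 (0.0837, 0.132 and 0.180) and MEFD3plu/MEFD0 (0.124, 0.0706 and 0.110). The main fit did not use the pairing. The labels do not say what a number shares, so the pairing comes from the data. Alternatives were DESeq2 1.42.0, other scalings, filters and thresholds, a replicate block, only the samples compared, and each sample left out in turn.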

Additional observations from a re-analysis of the deposited data

Results flagged for a closer look

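For 6 factors the treatment difference at day 3 departed from that at day 5 by the interaction test of edgeR. The day 3 log2 fold change minus that at day 5 was 1.11 for Runx2, 1.28 for Sox9, 0.46 for Twist1, 0.52 for Twist2, -0.54 for Prrx1 and -1.21 for Tbx2. Sox9 and Twist2 were called at day 5 alone, Twist1 and Tbx2 at day 3 alone, and Runx2 and Prrx1 were called in opposite directions. The Runx2 call at day 3 (edgeR adjusted p = 0.0445) and the Prrx1 call at day 5 (0.0290) were each lost under several alternatives, so these reversals of sign are uncertain, while the interaction is a test of the difference alone. With a change of at least 2-fold asked as well, 3 factors kept an interaction call, and the share of all genes was not taken at that threshold.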

How the results depend on the processing

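No log2 fold change that was called changed its sign under the alternatives run. Asking for a change of at least 2-fold as well left 3 factors called at day 3, 3 at day 5, 3 for the interaction, 2 for MEFD5min/MEFD3min, 2 for MEFD5min/MEFD0, 4 for MEFD3plu/MEFD0 and 1 for MEFD5plu/MEFD3plu. At an adjusted p under 0.01, 2 were left for MEFD5min/MEFD3min and 3 for MEFD5plu/MEFD3plu. The share of all genes was not taken at these thresholds, so these counts have no background beside them. Fitting only the samples compared left 2 for MEFD5min/MEFD3min, and there the counts ran from 2 to 5 over the fits that each lacked 1 sample, the lowest without MEFD3min replicate 1 or MEFD5min replicate 1. Of 72 member values, DESeq2 added 1 call and lost 0, total counts alone added 3 and lost 3, and of 480 values with 1 sample left out 32 lost their call and 6 gained one. Added after the data were seen, leaving out MEFD3min replicate 3 gave 11 called osteoblast genes at day 3 in place of 9 and 7 cartilage genes in place of 6. With Spearman's rho in place of Pearson's r over the 15 samples, 0 of the 3 most alike genes were shared for Runx2, Sp7, Msx2, Twist1 and Tbx2, and 1 for Sox9 and Prrx1. Depth limits Sp7, Msx1 and Dlx5, whose counts were at or near the floor.

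With the replicate block, 1 of 72 member calls changed: the Twist1 log2 fold change of 0.21 for MEFD5min/MEFD3min gained a call (edgeR adjusted p = 0.0323). Outside day 3 the numbers gave mean correlations of deviations of -0.0358 to 0.132 and were not taken to pair the samples. The block counts of called genes over all genes were 9451 in place of 8967 at day 3 and 8608 in place of 8079 at day 5.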
